A study of Brassica oleracea with 8 samples.

Results

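Kale and heading cabbage are leafy crops of one species, Brassica oleracea, and the comparison described here is between shoot tips of these crops. Its members are 5 of the 8 libraries of the series, chosen by their titles: the 3 titled kale and the 2 titled cabbage. Every library was RNA of the upper stem with young leaves and apical and lateral meristems, taken 24 days after sowing from 8 pooled plants grown in one chamber under short days. The kale is a single accession that the labels call B. oleracea var. viridis, and the paper calls it the lobed-leaf kale Red Winter of var. acephala. The cabbage is a single accession too, B. oleracea var. sabadua in the labels and var. capitata in the paper. The labels name no transgene or treatment, and accession is the only difference the labels state. With 1 accession each, a difference between kale and cabbage as crops and one between these lines cannot be told apart. The paper gives kale a higher range of fully expanded leaves than cabbage at collection. The crops were thus matched by day and not by leaf number, and crop and stage cannot be told apart. A cabbage head forms later than day 24. A shoot tip is a mixture, and more cells of a type or more RNA per cell cannot be told apart in any value below.

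Several gene systems bear on how these crops differ. Brassica plants store glucosinolates, sulfur compounds that the enzyme myrosinase breaks down into pungent products when tissue is damaged. In Arabidopsis the MADS-box repressor FLC and its MAF relatives hold back flowering by keeping the integrator SOC1 low, and leaf hairs arise where a MYB, bHLH and WD40 protein complex switches on GL2. Leaf outline and bud outgrowth depend on boundary genes, growth-regulating factors, auxin and strigolactones. B. oleracea descends from a genome triplication, so one Arabidopsis gene often has several copies here. Roles given below are those known from Arabidopsis.

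Counts on genes totalled 4742169 to 7539991 in the kale libraries and 3016197 and 5726708 in cabbage replicates 1 and 2. Levels are given as CPM, counts per 1000000 of the library total after TMM scaling, a correction for a few genes taking a large share of a library. CPM is not corrected for gene length, so levels are compared between crops and not between genes. Euclidean distances on log2 CPM were 210.1 to 223 between kale and cabbage libraries and 82.9 to 92.0 between libraries of one crop. The ratio of the mean distances was 2.44. An exact one-sided permutation test over the 10 ways to divide 5 libraries into 3 and 2 gave p = 0.1, the smallest value this design allows. Kale replicate 3 stood apart in breadth. Thinned to 3016197 counts, it had counts on 39079 features, whereas the other 4 libraries had 31223 to 33287. Features too low to be tested took 1.13% of its counts and 0.584% to 0.600% of theirs. Counts without this library are given beside the results it moves. Per the paper each library had an adapter of its own and the replicates of a crop took up part of a sequencing lane. Which libraries shared a lane is not spelled out, and the part of the lane in the results was not tested.

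How widely did the shoot tips differ? Of 25192 genes with enough counts to be tested, 6604 (26.2%) were called, that is, passed an edgeR quasi-likelihood test at a Benjamini-Hochberg adjusted p under 0.05 with more than a 2-fold difference. Kale was higher for 3816 of them (15.1% of the tested genes) and lower for 2788 (11.1%). The typical called gene was 1.92 log2 units higher or 1.67 log2 units lower in kale, where the sign is kale minus cabbage (median -1.67 for the lower genes). Of the genes higher in kale 491 had no count in cabbage, and of those lower 86 had none in kale, so the fitted size of these has no fixed value. Kale had 18732381 counts over 3 libraries and cabbage 8742905 over 2, so a gene reaches 0 more easily in cabbage. The 491 and the 86 are thus not comparable as they stand. Differences of single genes are given below as the estimate ± its standard error with the edgeR adjusted p. Over all tested genes the median difference was 0.05 log2 units. Without kale replicate 3, 3214 genes were higher and 2768 lower. Without cabbage replicate 2 the total was 4366 genes, 2450 of them higher, in a fit that takes the lone cabbage library to vary as the kale libraries do. In 61.5% of the tested genes every kale library lay on one side of both cabbage libraries, so that separation alone does not mark out a gene here.

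**Figure D1:**
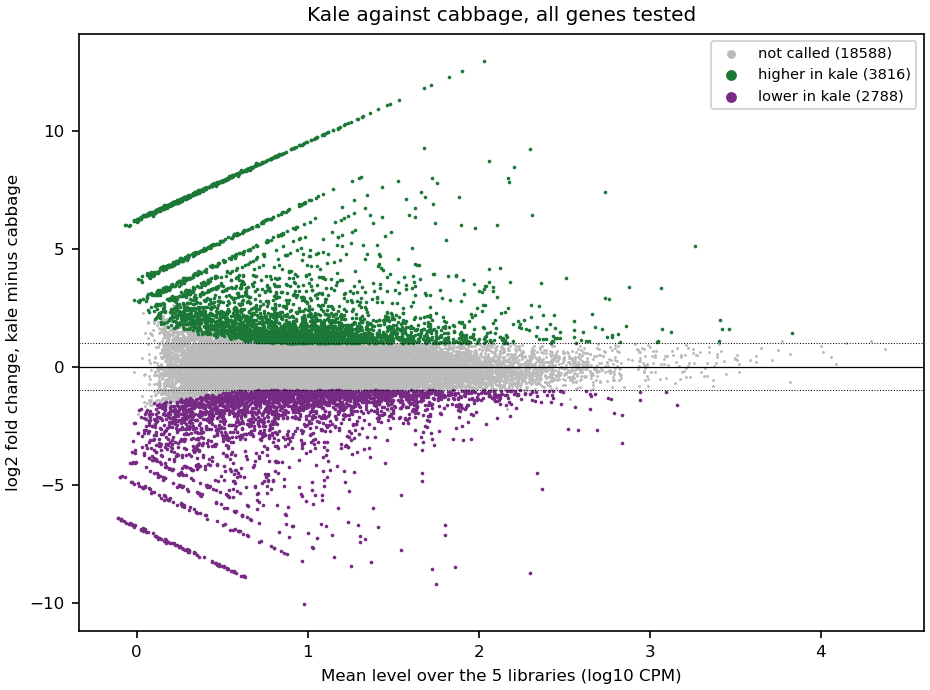
Each point is 1 of the 25192 tested genes, with its mean level over the 5 libraries (log10 CPM) across and its log2 difference, kale minus cabbage, upward; dotted lines mark a 2-fold difference. Of these, 3816 genes lie higher and 2788 lower in kale, and the slanting rows of points at low level are genes with 0 or a few counts in one crop, whose fitted difference has no fixed size.

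Calls were more frequent among tested genes of low count. Of the 6298 tested genes with the lowest means (0.776 to 4.34 CPM) 39.5% were called, and of the 6298 with the highest (from 24.5 CPM) 16.0%. The count filter keeps a gene that is counted well enough in 1 crop alone. Genes with low means can thus enter through the crop where they are high, and the filter sets part of this gap. Without the filter 7959 of 48360 genes were called. Genes higher in kale held 11.95% to 12.85% of the counts in the kale libraries and 3.99% to 4.05% in the cabbage libraries. Genes lower in kale held 2.83% to 3.44% of the counts in kale and 9.44% and 11.0% in cabbage. These shares were taken over genes chosen by the same counts and only describe how much of each transcriptome the called genes make up. Across the 9 chromosomes, read from the number in each gene identifier, 23.9% (C7) to 29.0% (C2) of the tested genes were called. Genes on unplaced scaffolds were called in 36.4% of 738 cases, 146 higher and 123 lower in kale, and without kale replicate 3 in 33.5% of 734. Among 49 tested features with an ENSRNA identifier, the annotation's non-coding RNA entries, 18 were higher and 3 lower in kale. Their share of all counts nevertheless overlapped between the crops (0.0469% to 0.103% in kale, 0.0441% and 0.0754% in cabbage), and without kale replicate 3 the calls were 15 higher and 6 lower of 45.

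The files give identifiers without names, so genes are described by 79 identifiers that the study pairs with a gene name, in 6 lists by function. The study picked these genes on the same libraries for being differentially expressed, so how many were called is no independent evidence about a pathway. Of the 79, 69 were tested, and 46 were higher and 21 lower in kale. That is 97.1% called, beside the 26.2% of all tested genes. The other 2, GRF4 and FER3, did not pass, and 10 had too few counts. No called gene of the lists changed sign in any of the 15 alternative settings where it was tested. A test against a 2-fold difference itself (glmTreat) called 47 of the 67, DESeq2 called 64, all but ACX5, BLI and AGL68/MAF5, and thinned counts gave 56. Among the 20 that glmTreat did not call were FLC Bo3g024250, TRY, GRF3, both BEL1/BLH1 copies, MYB96, SPL3 and IGMT4. Losses under glmTreat are not repeated gene by gene below. Where a crop had 0 counts, the fold is a lower bound against 3 counts over that crop, from counts pooled over its libraries, so deeper libraries weigh more. Among all called genes 57.8% were higher in kale, and the direction of each list is to be read beside that share. The lists differ in direction, and the values in each library follow.

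Of 17 defence genes tested, 14 were higher and 3 lower in kale, with a list median of 3.16 log2 units. Among all called genes 57.8% were higher in kale. Copies of a single gene, TGG1, make up 9 of the 14, so the count and the median rest largely on it. Of the rest, MYB29, AOP3, MBP2, MYB96 and IGMT1 Bo2g092580 were higher, and IGMT1 Bo2g092680, IGMT4 and ACX5 were lower. TGG1 is a myrosinase, the enzyme that splits glucosinolates. The study lists 9 gene copies of it, chosen for being differentially expressed, and all 9 were higher in kale. This covers the listed copies alone and is no count over the gene family. Summed over the listed copies, TGG1 stood at 1192, 2766 and 1382 CPM in kale replicates 1 to 3 and at 158 and 196 CPM in cabbage replicates 1 and 2. Kale replicate 2 was the highest library for each of the 9 copies, and even the lowest kale library lay far above both cabbage libraries. Single copies ranged widely. Bo2g155810 had 243, 332 and 232 CPM in kale and 1.01 and 0.618 in cabbage, a difference of 8.45 ± 0.41 log2 units (adjusted p = 1.53e-09) and the largest of the 9. Its neighbours by identifier were well counted in both crops. Bo2g155820 had 337, 824 and 395 CPM in kale and 32.1 and 44.5 in cabbage, 3.75 ± 0.39 log2 units (adjusted p = 3.00e-06). Bo2g155840 had 262, 508 and 265 CPM in kale and 68.3 and 82.2 in cabbage and differed least of the 4 neighbours, by 2.19 ± 0.31 log2 units (adjusted p = 5.91e-05). Bo2g155870 had 175, 639 and 275 CPM in kale and 29.8 and 32.0 in cabbage, 3.55 ± 0.45 log2 units (adjusted p = 2.14e-05). In all 4 every kale library lay above both cabbage libraries, and without kale replicate 2 Bo2g155870 differed by 2.86 log2 units.

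The other listed TGG1 copies lie elsewhere. Bo8g039420 had 23.6, 65.5 and 35.6 CPM in kale and 1.01 and 2.78 in cabbage, a difference of 4.25 ± 0.48 log2 units (adjusted p = 7.05e-06), and Bo8g063740 had 93.8, 297 and 120.4 CPM in kale and 13.2 and 18.2 in cabbage, 3.41 ± 0.43 log2 units (adjusted p = 2.25e-05). The remaining copies were Bo6g095790 with 3.85 ± 0.56 log2 units (adjusted p = 7.24e-05), Bo8g039530 with 2.02 ± 0.32 log2 units (adjusted p = 1.73e-04) and, on an unplaced scaffold, Bo00934s010 with 2.17 ± 0.27 log2 units (adjusted p = 2.11e-05). Without kale replicate 2 the estimates were 2.74 for Bo8g063740 and 3.23 for Bo6g095790, and without cabbage replicate 2 that of Bo8g039420 was 5.31 log2 units. The order of the copies by CPM was not the same in the crops: Bo2g155810 was among the 4 highest of the 9 copies in every kale library and among the 3 lowest in both cabbage libraries. Copies of one gene are alike in sequence, and reads that map equally well to several places are usually not counted, so the split between copies is less certain than the sum. The myrosinase-binding protein MBP2 (Bo6g040050), which associates with the enzyme, moved the same way, with 4.96, 10.4 and 6.3 CPM in kale and 0.338 and 0 in cabbage. MBP2 had 1 count in all in cabbage, a ratio of 66.6 with a 95% counting interval of 11.7 to 2652 and an adjusted p of 6.73e-05.

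The listed genes that make or shape glucosinolates went both ways. In its own comparison of kale with cabbage, the paper reports glucosinolate metabolism and biosynthesis as enriched among the genes lower in kale. That enrichment was not tested here. MYB29 (Bo9g175680), a regulator of aliphatic glucosinolate synthesis, had 5.34, 3.02 and 3.38 CPM in kale and 0 and 0.463 in cabbage, a ratio of 12.9 with a 95% counting interval of 4.25 to 64.0 (adjusted p = 0.0013). AOP3 (Bo3g052110), which modifies the side chain of these compounds, had 6.99, 9.41 and 5.18 CPM in kale and 2.37 and 2.47 in cabbage and was higher by 1.57 ± 0.40 log2 units (adjusted p = 0.00649), a call that was lost without cabbage replicate 2 (adjusted p = 0.0718, 0.00133 to 0.173 over the alternatives) and on thinned counts. The methyltransferases of indole glucosinolates split between copies. IGMT1 Bo2g092580 was higher in kale, with 3.43, 1.85 and 3.83 CPM in kale and 0.338 and 0.309 in cabbage and a ratio of 9.47 with a 95% counting interval of 3.07 to 47.3 (adjusted p = 0.00314; adjusted p = 0.0778 without cabbage replicate 2, 3.26e-04 to 0.0778 over the alternatives). Without kale replicate 1 it was too low to test. IGMT1 Bo2g092680 was lower, with 0, 0.504 and 0 CPM in kale and 7.1 and 5.72 in cabbage, where its 3 kale counts all came from replicate 2. Its ratio of kale to cabbage was 0.0267 with a 95% counting interval of 0.00535 to 0.082 (adjusted p = 7.26e-05). IGMT4 (Bo9g094320) was lower as well, with 9.15, 3.53 and 6.53 CPM in kale and 18.9 and 22.1 in cabbage, -1.66 ± 0.32 log2 units (adjusted p = 7.66e-04). So 2 of the 3 methyltransferase genes were lower in kale and 1 was higher.

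Outside the glucosinolate system, MYB96 (Bo2g082270), which switches on cuticular wax synthesis, had 122, 149.6 and 99.7 CPM in kale and 45.6 and 48.2 in cabbage and was higher in kale by 1.40 ± 0.23 log2 units (adjusted p = 2.49e-04). ACX5 (Bo3g028490), an acyl-CoA oxidase of jasmonate synthesis, was the one called defence gene whose libraries overlapped. ACX5 had 2.41, 2.02 and 4.28 CPM in kale and 4.06 and 8.5 in cabbage, -1.22 ± 0.43 log2 units (adjusted p = 0.0372), and its call was lost without cabbage replicate 2 (-0.53), kale replicate 1 (-1.10) or kale replicate 2 (-1.03 log2 units), in DESeq2 and on thinned counts.

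**Figure D2:**
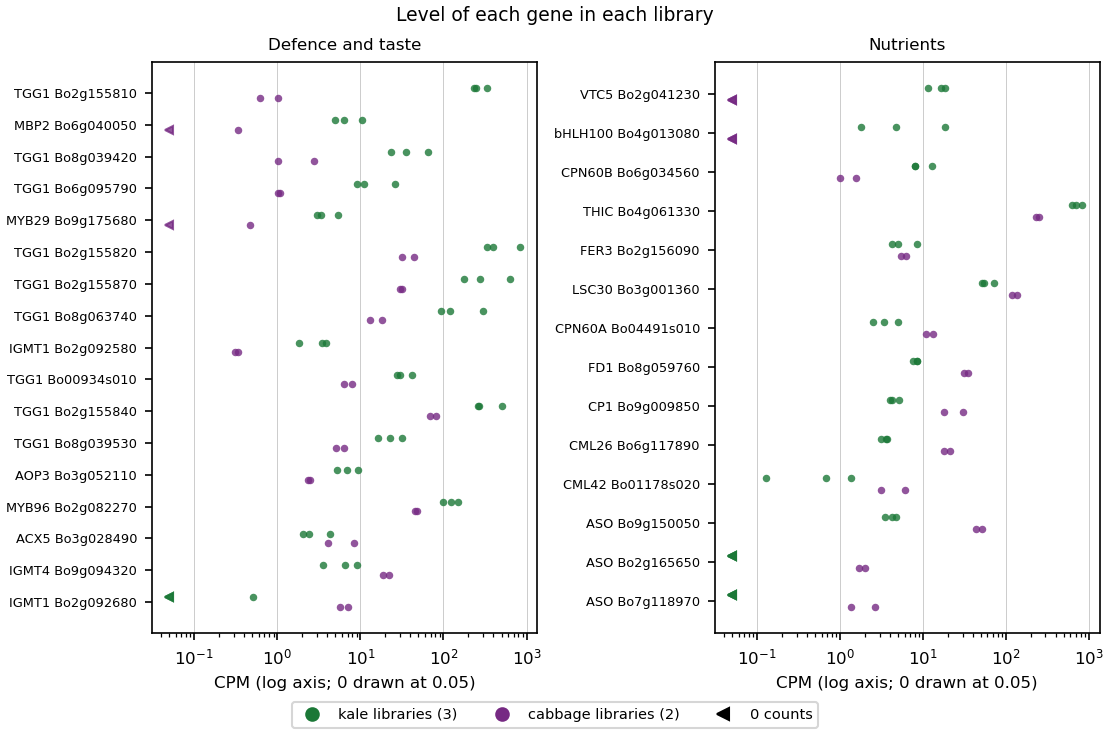
Each point is the level of a gene in 1 library (CPM, log axis, with 0 counts drawn as a triangle at 0.05), kale in green and cabbage in purple, for the 17 defence genes on the left and the 14 nutrient genes on the right, ordered by the ratio of kale to cabbage. The TGG1 copies fill the upper part of the left panel with kale points to the right of cabbage points, while most nutrient genes have cabbage to the right.

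Of 14 flowering-time genes tested, 10 were higher and 4 lower in kale, with a list median of 2.22 log2 units. Among all called genes 57.8% were higher in kale. The called repressors of the FLC clade were all higher. FLC Bo9g173370 had 28.8, 16.3 and 19.4 CPM in kale and 2.37 and 2.01 in cabbage, a difference of 3.33 ± 0.37 log2 units (adjusted p = 5.35e-06). FLC Bo3g024250 had 15.4, 13.9 and 14.9 CPM in kale and 5.07 and 6.8 in cabbage, 1.27 ± 0.28 log2 units (adjusted p = 0.00217). Both listed copies were higher in every kale library than in either cabbage library, and the estimate was larger for the copy on C9. That gap between the copies was not tested. The FLC relatives AGL27/MAF1 (Bo3g100570) and AGL69 (Bo3g100540) carried the same direction. AGL27/MAF1 had 11.9, 9.58 and 11.7 CPM in kale and 2.03 and 2.47 in cabbage, 2.25 ± 0.34 log2 units (adjusted p = 1.24e-04), and AGL69 had 15.3, 14.5 and 11.9 CPM in kale and 1.01 and 0.927 in cabbage, 3.84 ± 0.39 log2 units (adjusted p = 2.32e-06). AGL68/MAF5 (Bo01054s030) had 3.05, 3.7 and 1.35 CPM in kale and 0.676 and 0.463 in cabbage, 2.32 ± 0.69 log2 units (adjusted p = 0.0152). Its call was lost without either cabbage library (adjusted p = 0.064 and 0.196, 0.0049 to 0.196 over the alternatives) and in DESeq2, and without kale replicate 1 or 2 it was too low to test. AGL70/MAF3 (Bo03856s010) was too low to be tested and had the opposite pattern, with 0, 0.336 and 0 CPM in kale and 1.35 and 1.7 in cabbage. FRL4A (Bo5g097000), of the FRIGIDA-like family named after an activator of FLC, had 8.51, 7.56 and 10.4 CPM in kale and 0.338 and 0 in cabbage. FRL4A had 158 counts in kale and 1 in cabbage, a ratio of 81.6 with a 95% counting interval of 14.4 to 3243 (adjusted p = 9.61e-06).

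Genes that promote flowering did not share one direction. AP1 (Bo2g062650), which gives a meristem its floral identity, was higher in kale, with 6.23, 5.04 and 4.95 CPM in kale and 0 and 0.154 in cabbage and a ratio of 52.2 with a 95% counting interval of 9.15 to 2080.4 (adjusted p = 5.21e-05). AP1 was nearly uncounted in cabbage. SPL3 (Bo4g042390), a promoter of the adult phase, was lower in kale, with 3.81, 4.03 and 5.18 CPM in kale and 12.8 and 12.2 in cabbage, -1.54 ± 0.29 log2 units (adjusted p = 7.58e-04). The flowering integrator SOC1 has 2 listed copies. Bo3g038880 was higher, with 4.45, 3.19 and 2.25 CPM in kale and 0.338 and 0.927 in cabbage, 2.19 ± 0.61 log2 units (adjusted p = 0.0107), and Bo4g024850 was too low to be tested, with 0.127, 0.336 and 0.45 CPM in kale and 1.69 and 1.54 in cabbage. Without cabbage replicate 2 the SOC1 estimate was 3.22 log2 units. The SOC1 call was lost without either cabbage library (adjusted p = 0.0826 and 0.0553, 0.00286 to 0.0826 over the alternatives). AGL19 (Bo7g108360), another promoter, was counted in kale alone, at 0.45 to 2.03 CPM, below the level for a test.

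The remaining flowering genes are of several kinds, among them clock, homeobox, chromatin and MADS-box genes. ELF3 (Bo4g159930), a part of the evening complex of the clock, had 12.3, 9.75 and 9.68 CPM in kale and 3.04 and 1.08 in cabbage, higher in kale by 2.56 ± 0.42 log2 units (adjusted p = 2.21e-04). BLH3 (Bo6g119600), a BELL homeobox gene, had 8.26, 6.39 and 12.4 CPM in kale and 2.37 and 1.85 in cabbage, 2.11 ± 0.42 log2 units (adjusted p = 0.00105). Both were higher in every kale library than in either cabbage library. The cabbage libraries differed for ELF3, and its estimate was 3.26 log2 units without cabbage replicate 1 and 1.79 without cabbage replicate 2. LHP1 (Bo2g013840), which reads the Polycomb mark that keeps FLC and other genes silent, was lower, with 2.03, 1.85 and 2.25 CPM in kale and 11.8 and 8.8 in cabbage, -2.31 ± 0.36 log2 units (adjusted p = 1.41e-04). AGL12 (Bo6g094120) had 0.254, 0.504 and 0 CPM in kale and 6.42 and 4.33 in cabbage, -4.16 ± 0.65 log2 units (adjusted p = 1.51e-04). AGL12, a MADS-box gene, stood at 5 counts in kale against 47 in cabbage, and without kale replicate 2 its estimate was -4.84 log2 units. COL1 (Bo9g163720), of the CONSTANS-like family, had 3.81, 1.34 and 3.38 CPM in kale and 9.13 and 5.72 in cabbage, -1.32 ± 0.44 log2 units (adjusted p = 0.0266), a call lost without cabbage replicate 1 (-1.01 log2 units) or kale replicate 2 (-0.98 log2 units) and on thinned counts.

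Of 9 trichome genes tested, 7 were higher in kale and 2 lower (list median 2.69 log2 units). GL2 (Bo6g079990), the homeobox gene that drives a cell into hair development, had 7.63, 13.8 and 7.43 CPM in kale and 0.676 and 0 in cabbage, a ratio of 45.2 with a 95% counting interval of 12.3 to 376 (adjusted p = 4.40e-05). GL1 (Bo7g090950), the MYB partner of the initiation complex, had 1.78, 2.69 and 1.8 CPM in kale and 0.338 and 0 in cabbage and a ratio of 19.6 with a 95% counting interval of 3.32 to 795 (adjusted p = 0.00488). The GL1 call was lost without cabbage replicate 2 (adjusted p = 0.179, 0.00103 to 0.179 over the alternatives), and without kale replicate 1 or 2 GL1 was too low to test. EGL3 (Bo9g035460), the bHLH partner, ran the other way, with 4.45, 6.05 and 5.18 CPM in kale and 14.5 and 22.6 in cabbage, -1.86 ± 0.28 log2 units (adjusted p = 1.12e-04). So the listed MYB copy of the complex was higher and the listed bHLH copy lower in kale, which says nothing of copies outside the list.

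TRY (Bo1g051040), a small MYB that holds neighbouring cells back from becoming hairs, had 36.2, 57.5 and 47.7 CPM in kale and 19.3 and 22.2 in cabbage, 1.17 ± 0.24 log2 units (adjusted p = 0.00153). MYB106 Bo5g156410, a regulator of hair branching and cuticle, had 21.4, 21.8 and 15.8 CPM in kale and 4.73 and 5.56 in cabbage, 1.91 ± 0.29 log2 units (adjusted p = 9.89e-05). MYB106 Bo8g104210 had 4.83, 3.19 and 2.03 CPM in kale and 0.338 and 0.463 in cabbage, 2.97 ± 0.69 log2 units (adjusted p = 0.00325), a call lost without cabbage replicate 2 (adjusted p = 0.0595, 1.77e-04 to 0.0595 over the alternatives). Both copies were higher in kale, and without kale replicate 1 or 2 Bo8g104210 was too low to test. WRKY44 Bo3g031650, known as TTG2 and acting beside GL2, had 6.61, 7.23 and 6.98 CPM in kale and 1.01 and 1.08 in cabbage, 2.69 ± 0.45 log2 units (adjusted p = 2.56e-04), and its other copy Bo4g030720, too low for a test, had 0.508, 1.68 and 3.83 CPM in kale and 0 in both cabbage libraries. CML42 Bo3g162280, a calmodulin-like protein of hair branching, had 1.27, 4.03 and 2.03 CPM in kale and 0 in both cabbage libraries, or 43 counts against 0, a level at least 7.4-fold higher in kale (adjusted p = 0.00205), or 2.32-fold without cabbage replicate 2 and 4.85-fold without kale replicate 2. That call was lost without cabbage replicate 2 (adjusted p = 0.063, 1.21e-05 to 0.063 over the alternatives), and without any single kale library CML42 was too low to test. HDG11 (Bo4g039530), a homeobox gene that limits branching, was lower in kale, with 4.45, 3.53 and 2.25 CPM in kale and 9.8 and 14.7 in cabbage, -1.82 ± 0.33 log2 units (adjusted p = 5.64e-04). MYB80 and XIK had 0 and 1 counts in kale and 7 each in cabbage and were not tested.

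**Figure D3:**
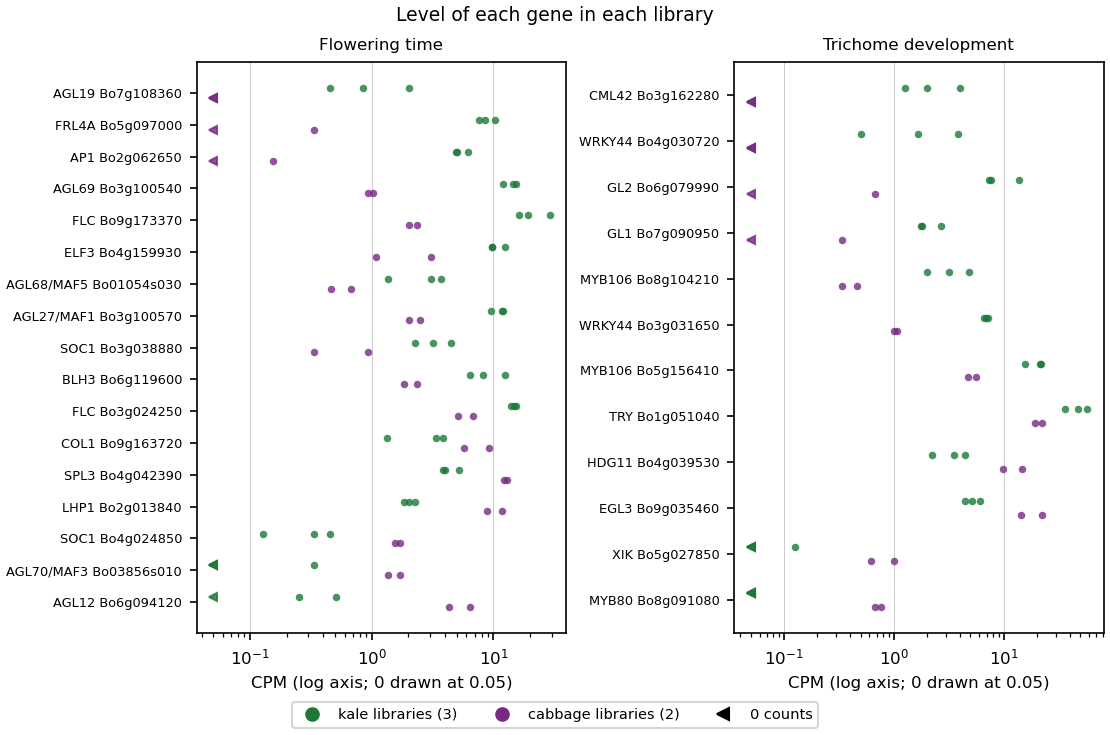
Each point is the level of a gene in 1 library (CPM, log axis, with 0 counts drawn as a triangle at 0.05), kale in green and cabbage in purple, for the 17 flowering-time genes and the 12 trichome genes, ordered by the ratio of kale to cabbage. Kale points lie to the right for both FLC copies, AGL69, MAF1 and MAF5 and for GL2, GL1 and both copies of MYB106, and to the left for MAF3, LHP1, AGL12, EGL3 and HDG11.

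Of 10 leaf development genes tested, 6 were higher and 3 lower in kale, with estimates between -1.88 and 2.47 log2 units and a list median of 1.41. Without cabbage replicate 2, 5 of the 10 were called. HAT5 (Bo5g155120), a leucine zipper homeobox gene, had 9.28, 7.56 and 11.0 CPM in kale and 1.01 and 2.01 in cabbage, a difference of 2.47 ± 0.41 log2 units (adjusted p = 2.37e-04), or 3.14 log2 units without cabbage replicate 2. NGA1 (Bo3g039420), which restrains growth of the leaf margin, had 12.3, 9.24 and 8.33 CPM in kale and 4.4 and 2.93 in cabbage, 1.52 ± 0.35 log2 units (adjusted p = 0.00298). The homeobox genes BEL1/BLH1 were both higher, Bo3g029830 with 36.6, 28.2 and 36.9 CPM in kale and 13.9 and 12.2 in cabbage, 1.39 ± 0.24 log2 units (adjusted p = 3.26e-04). Bo4g142080 had 29.0, 22.2 and 28.6 CPM in kale and 12.8 and 6.02 in cabbage, 1.58 ± 0.30 log2 units (adjusted p = 7.91e-04). All kale libraries lay above both cabbage libraries for these 4 genes. Without cabbage replicate 2, NGA1 and Bo4g142080 lost their calls (1.18 and 1.03 log2 units). bHLH64 (Bo3g094060), a bHLH transcription factor, had 3.69, 6.55 and 11.3 CPM in kale and 3.04 and 0.618 in cabbage, 2.20 ± 0.62 log2 units (adjusted p = 0.0116). Kale replicate 1 lay close to cabbage replicate 1, and the call was lost without cabbage replicate 2 (1.17 log2 units), while without cabbage replicate 1 the estimate was 3.43. BLI (Bo3g082080), a partner of Polycomb proteins, had 2.92, 5.88 and 3.15 CPM in kale and 1.35 and 1.54 in cabbage, 1.42 ± 0.52 log2 units (adjusted p = 0.0435), and lost its call without cabbage replicate 1 (1.33), cabbage replicate 2 (1.53) or kale replicate 2 (1.03 log2 units), in DESeq2 and on thinned counts.

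Lower in kale were ASL6, GRF3 and ANT. ASL6 (Bo7g041000), of the LOB domain family, had 5.97, 5.55 and 4.28 CPM in kale and 15.9 and 22.9 in cabbage, -1.88 ± 0.27 log2 units (adjusted p = 7.93e-05). The growth-regulating factor GRF3 (Bo4g186220), which sustains cell division in young leaves, had 4.19, 4.87 and 5.18 CPM in kale and 11.5 and 10.8 in cabbage, -1.24 ± 0.29 log2 units (adjusted p = 0.00372). GRF4 (Bo4g122960) had 2.54, 2.52 and 2.7 CPM in kale and 4.4 and 5.41 in cabbage, and its difference of -0.94 ± 0.40 log2 units (adjusted p = 0.0747) passed neither threshold. ANT (Bo3g153310), which keeps cells of young organs dividing, had 12.7, 7.39 and 7.2 CPM in kale and 20.6 and 17.3 in cabbage and lay just past the fold threshold at -1.02 ± 0.28 log2 units (adjusted p = 0.0106). The ANT call was lost without cabbage replicate 1 (-0.92), kale replicate 2 (-0.88) or kale replicate 3 (-0.88 log2 units), in the fit with replicate number as a block and without a count filter.

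Several shoot branching and auxin genes were nearly uncounted in cabbage. Of 7 tested, 5 were higher and 2 lower in kale, and 4 were called without cabbage replicate 2. The list median was 5.62 log2 units as fitted and 2.67 with genes at 0 in cabbage set to their lower bound. Both copies of REVOLUTA, a homeobox gene of meristems and leaf polarity, were at 0 in both cabbage libraries: Bo7g021280 had 8.9, 5.38 and 4.28 CPM in kale and Bo9g130730 had 2.03, 1.85 and 2.25 CPM. These put kale at least 20.8-fold higher for Bo7g021280 (adjusted p = 4.79e-05) and at least 6.37-fold for Bo9g130730 (adjusted p = 0.00122), or 6.53-fold and 2.00-fold without cabbage replicate 2. The call for Bo9g130730 was lost without cabbage replicate 2 (adjusted p = 0.0621, 8.51e-05 to 0.0621 over the alternatives), and without kale replicate 1 it was too low to test. The AXR1 copies, which activate the auxin response machinery, summed to 15.1, 10.3 and 6.98 CPM in kale replicates 1 to 3 and to 0 and 0.309 CPM in cabbage. Of these, Bo8g102450 (adjusted p = 4.95e-05) and Bo8g052710 (adjusted p = 5.87e-04) were called, and Bo8g115290, with 1.78, 1.68 and 0.45 CPM in kale and 0 and 0.154 in cabbage, was too low to test. Without kale replicate 1 or 2 Bo8g052710 was too low as well. A level of 0 here concerns the named copies alone, since the study names no others. TCP18 (Bo3g071570), which holds buds back, was also at 0 in cabbage and, with 23 counts in kale, too low to test.

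The strigolactone genes moved against each other. DWARF27 (Bo9g035190), which acts first in the pathway, had 7.63, 3.02 and 6.3 CPM in kale and 1.01 and 1.54 in cabbage, 2.05 ± 0.53 log2 units (adjusted p = 0.00637), a call lost without cabbage replicate 2 (adjusted p = 0.053, 2.95e-04 to 0.07 over the alternatives). MAX1 (Bo3g042090), which acts later, had 9.79, 11.9 and 10.6 CPM in kale and 29.4 and 33.1 in cabbage, -1.54 ± 0.22 log2 units (adjusted p = 6.73e-05). PID (Bo4g182790), a kinase that directs auxin transport, had 7.5, 4.54 and 6.98 CPM in kale and 11.2 and 19.0 in cabbage, -1.28 ± 0.30 log2 units (adjusted p = 0.00379). Without cabbage replicate 2 it passed neither threshold (-0.82 log2 units).

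**Figure D4:**
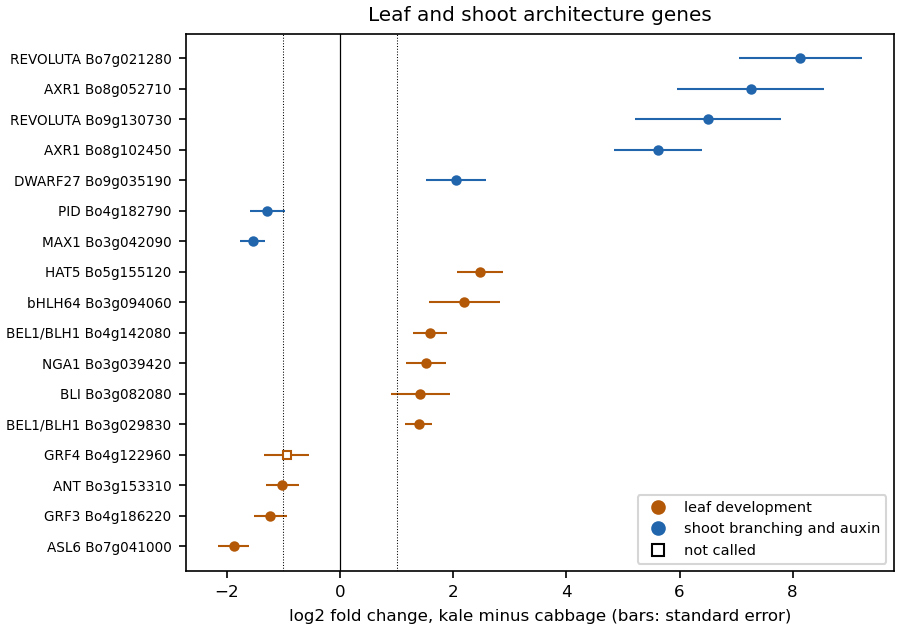
Points are fitted log2 differences, kale minus cabbage, with bars of 1 standard error, for the 17 tested genes of leaf development (orange) and of shoot branching and auxin (blue); dotted lines mark a 2-fold difference and the open square is GRF4, which was not called. Leaf genes lie between -1.88 and 2.47, whereas the REVOLUTA and AXR1 copies reach 5.62 to 8.13 with wide bars, because cabbage had 0 or 1 counts for them and the fitted size is then not fixed.

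Nutrient genes were the one list with more members lower in kale, 7 of 12 tested against 4 higher (list median -1.40 log2 units). In vitamin C metabolism, the listed synthesis gene and the tested oxidase copy went opposite ways. VTC5 (Bo2g041230), GDP-L-galactose phosphorylase of ascorbate synthesis, had 11.6, 18.7 and 16.7 CPM in kale and 0 in both cabbage libraries. VTC5 had 276 counts in kale against none in cabbage, so kale was at least 47.5-fold higher (adjusted p = 7.62e-07), or 14.9-fold without cabbage replicate 2. Whether VTC5 is silent, diverged in sequence or missing in this cabbage cannot be told apart. The ascorbate oxidase ASO Bo9g150050 had 4.7, 3.53 and 4.28 CPM in kale and 43.3 and 51.4 in cabbage, -3.50 ± 0.24 log2 units (adjusted p = 3.66e-08). The other ASO copies, Bo7g118970 and Bo2g165650, had 0 counts in kale and 21 and 18 in cabbage, at least 13.6-fold and 11.6-fold lower in kale, too low to test. Without kale replicate 1 these bounds were 7.71-fold and 6.61-fold, without cabbage replicate 2 that of Bo7g118970 was 8.23-fold, and without kale replicate 2 that of Bo2g165650 was 7.83-fold. Together the 3 copies stood at 3.53 to 4.70 CPM in kale and 46.3 and 56.1 CPM in cabbage. THIC (Bo4g061330), which makes the pyrimidine part of thiamine, had 704, 625 and 836 CPM in kale and 231 and 252 in cabbage, higher in kale by 1.58 ± 0.26 log2 units (adjusted p = 2.07e-04).

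The 3 genes of calcium-binding proteins in this list were lower in kale. CML26 (Bo6g117890) had 3.56, 3.7 and 3.15 CPM in kale and 21.3 and 17.9 in cabbage, -2.47 ± 0.27 log2 units (adjusted p = 5.14e-06), and CP1 (Bo9g009850) had 5.08, 4.03 and 4.28 CPM in kale and 30.4 and 17.8 in cabbage, -2.38 ± 0.29 log2 units (adjusted p = 1.56e-05). CML42 Bo01178s020 had 0.127, 0.672 and 1.35 CPM in kale and 6.09 and 3.09 in cabbage, -2.75 ± 0.66 log2 units (adjusted p = 0.00424), a call lost without cabbage replicate 1 (adjusted p = 0.103, 6.78e-05 to 0.103 over the alternatives). Its estimate was -2.11 log2 units without kale replicate 1 and -3.48 without kale replicate 3. This copy was lower in kale while the CML42 copy of the trichome list was higher. Among iron genes, the ferritin LSC30 (Bo3g001360), an iron store of plastids, had 55.0, 72.6 and 51.8 CPM in kale and 118 and 138 in cabbage, -1.10 ± 0.21 log2 units (adjusted p = 9.18e-04). Without cabbage replicate 2 LSC30 fell just inside the fold threshold (-0.99 log2 units). The ferritin FER3 (Bo2g156090) had 8.51, 4.2 and 4.95 CPM in kale and 5.41 and 6.33 in cabbage, overlapping levels with a difference of 0.01 ± 0.37 log2 units (adjusted p = 0.981). bHLH100 (Bo4g013080), induced when iron is short, had 18.6, 4.71 and 1.8 CPM in kale and 0 in both cabbage libraries. Kale replicate 1 was by far the highest, and with 182 counts against 0 kale was at least 31.3-fold higher (adjusted p = 0.0012). The bound was 10.9-fold without kale replicate 1 and 9.83-fold without cabbage replicate 2. Without kale replicate 1 or 2 bHLH100 was too low to test.

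Genes of the chloroplast gave no common direction. The chaperonin subunits that assist RuBisCO assembly were opposite, CPN60A (Bo04491s010) at 4.96, 3.36 and 2.48 CPM in kale and 10.8 and 13.3 in cabbage, -1.71 ± 0.33 log2 units (adjusted p = 8.11e-04), and CPN60B (Bo6g034560) at 8.13, 12.8 and 8.1 CPM in kale and 1.01 and 1.54 in cabbage, 2.81 ± 0.43 log2 units (adjusted p = 1.16e-04). The ferredoxin FD1 (Bo8g059760) was lower in kale, with 8.51, 8.4 and 7.65 CPM in kale and 35.2 and 31.2 in cabbage, -2.00 ± 0.22 log2 units (adjusted p = 5.78e-06). Of the named genes that mark a tissue, those of young organ primordia (ANT), hairs (TRY) and chloroplasts (CPN60A, CPN60B and FD1) were counted in every library. The hair genes GL1 and GL2 and the floral gene AP1 had 1, 2 and 1 counts in cabbage and 38, 175 and 101 in kale. Other hair genes went the other way, EGL3 and HDG11 being lower in kale. The part of these tissue markers in the other results was not tested.

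Beyond the named genes, some were counted in one crop only. With all libraries thinned to 3016197 counts, 204 genes had at least 10 counts in every kale library and 0 in both cabbage libraries, and 88 had the reverse. Kale has 3 libraries and cabbage 2, and both library number and depth bear on these numbers. Leaving out cabbage replicate 1, the shallowest library, gave 442 and 141, with the others thinned to 4742169 counts instead. Leaving out cabbage replicate 2, with the depth unchanged, gave 276 and 102. VTC5 and REVOLUTA Bo7g021280 were the named genes among the 204, and none was among the 88. The mean levels had medians of 7.85 CPM for the kale genes and 6.80 CPM for the cabbage genes, and reached 179 and 140.3 CPM. In the counts as deposited, 14 of the 204 and 34 of the 88 had a count in the other crop. Reads of both crops were mapped to the genome of TO1000, so a gene with a diverged sequence in one accession and a gene that is silent there cannot be told apart, nor can a gene that is missing.

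The widest measured differences with more than 3 counts in each crop fell on genes the files do not name. Bo3g045170 had 292, 430.3 and 273 CPM in kale and 0.676 and 0.463 in cabbage, 9.22 ± 0.45 log2 units (adjusted p = 1.67e-09), and Bo2g093380 had 211, 151 and 214 CPM in kale and 1.35 and 0 in cabbage, 8.70 ± 0.55 log2 units (adjusted p = 1.65e-08). Bo1g008790 had 0.508, 0 and 0 CPM in kale and 146 and 135 in cabbage, -9.19 ± 0.42 log2 units (adjusted p = 1.37e-09), and Bo1g009820 had 2.41, 0.504 and 0 CPM in kale and 554 and 442 in cabbage, -8.72 ± 0.48 log2 units (adjusted p = 4.87e-09). The direction held without any single library, but the size rests on a few counts in the lower crop. All counts of Bo2g093380 in cabbage came from replicate 1, and its estimate was 13.21 log2 units without that library and 7.11 without cabbage replicate 2. Without kale replicate 1 the estimates were -12.43 for Bo1g008790 and -10.63 for Bo1g009820. In the 3 libraries of TO1000, a rapid cycling line outside this comparison, the same genes had 104, 7073, 1050 and 5196 counts in all, in the order just given, so the crop with few counts was the exception for the last 3.

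The 2 genes lowest in kale lie in one stretch of chromosome C1. Taking the tested genes in the order of their identifiers, the longest run of neighbours called lower in kale held 6 genes, and it contained both. Over these 6 genes kale had 389 counts and cabbage 7959, from totals of 18732381 and 8742905 counts on all features. Of the 389 kale counts, 359 were on the first gene of the run, and for the other 5 genes the kale mean was under 1 CPM. Cabbage means ran from 3.39 to 498 CPM. The differences lay between -9.19 and -3.10 log2 units, with adjusted p values up to 1.09e-04. Among the 12 tested genes on each side of the run, 11 of 24 were lower in kale, 3 higher and 10 not called, beside 11.1% lower over all tested genes. The stretch was picked for its values, so these counts describe it and test nothing. Runs of 5 or 6 genes in one direction were few, 6 higher and 5 lower in kale over the 9 chromosomes, and most called genes had no called neighbour of their direction (2422 higher and 1935 lower).

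**Figure D5:**
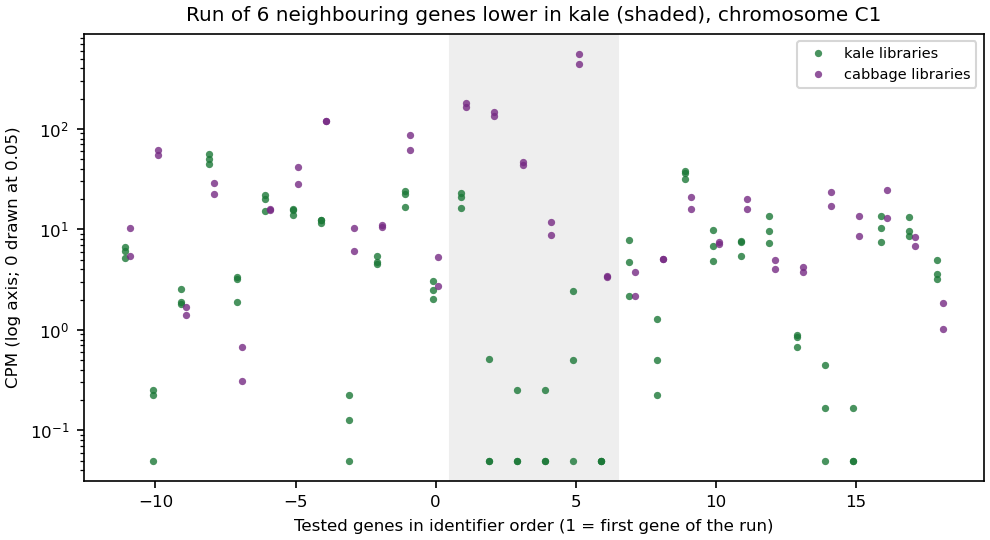
Each point is the level of a gene in 1 library (CPM, log axis, 0 drawn at 0.05), with tested genes in the order of their identifiers on chromosome C1 from left to right and the 6-gene run shaded. In the shaded run cabbage (purple) reaches a mean of 498 CPM where kale (green) has few or no counts, while genes with similar levels in both crops lie in between on both sides.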

How the data were processed

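RNA sequencing counts of the 3 kale and 2 cabbage libraries, grouped and numbered by their titles, were used, and the 3 TO1000 libraries entered only where stated. Each library pooled 8 plants. Per the labels and the paper, the authors trimmed single-end reads (Cutadapt 2.4 in the submitters' processing notes), mapped them with STAR in 2 passes to the TO1000 genome and deposited raw read counts per annotated feature, without normalization. The paper names no strand column and no molecular identifiers, so overlapping antisense genes are less certain, and intervals and floors cover counting error only. cDNA was amplified by PCR from polyadenylated RNA without DNase treatment. The paper calls the cDNA normalized but describes no step that evens out abundances; such a step would compress differences of abundant genes. Another cabbage replicate was not used by the authors and is not analysed here.

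Counts were fitted in R 4.3.3 with edgeR 4.0.16 on the 5 libraries alone: filterByExpr (minimum count 10, minimum total 15), TMM factors, glmQLFit and glmQLFTest with crop as the only term, two-sided, with Benjamini-Hochberg adjustment over 25192 genes. Adjusted p values are from this fit unless another setting or a range over the alternatives is named. Standard errors were derived from the F statistic. The biological coefficient of variation was 0.199, and 0.204 within kale and 0.183 within cabbage. The replicates are separate pools of plants. No libraries agreed within sampling noise (smallest chi-square per gene 9.10). Where a crop had 0 counts, a fold is a lower bound from pooled counts against 3 counts over that crop (0.164 CPM in kale, 0.318 CPM in cabbage). On simulated counts with 200 genes changed by 2 log2 units among 24390, the steps recovered 82.0% with 7 false calls. The simulation changed far fewer genes than were called here, evenly in both directions and by a fixed size. Its spread was taken from the same fit, so these rates need not hold for the data.

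The fit was repeated in DESeq2 1.42.0, with upper-quartile or RLE factors, without a filter, with a mean of 10 counts, with glmTreat, on adjusted p alone, on all 8 libraries, with replicate number as a block, on thinned counts and without each library in turn. Named genes were, in each list, the 2 called genes with the widest difference in each direction, all copies of a multi-copy name, and those not called or not tested; other listed genes are described too, and over all genes the 2 widest in each direction. The lists, tests and comparison were chosen with earlier results of these data known. None of the 60586 identifiers was in the RefSeq table at hand, so names are the paper's.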

Additional observations from a re-analysis of the deposited data

How the results depend on the processing

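Across the alternatives the number of called genes moved past 1.5 times in few cases. glmTreat, which tests against a 2-fold difference itself, called 3044 genes, 1822 higher and 1222 lower. An adjusted p alone called 9278, with 4202 lower. Leaving out 1 library gave 4366 to 6654 genes, 2450 to 3771 higher and 1916 to 2883 lower, with the lowest without cabbage replicate 2. DESeq2 called 5723 genes, of which 5687 were called in edgeR too. With no count filter 61.1% of 7959 called genes were higher in kale, against 57.8% with the filter, and without kale replicate 3 53.7%. Of the 67 called genes of the lists, 51 to 65 were called when a library was left out; counting new calls too, the lists then had 51 to 67. For 49 genes followed singly, 699 of 717 values kept their side of the thresholds, 18 did not and none of a called gene changed sign. Alternatives in which a gene was too low to test are not among the 717, so calls lost that way are not counted. glmTreat called 9 of the flowering list and 2 of the leaf list. The distance ratio was 6.61 with the 500 most variable genes, 2.12 with thinned counts, 4.59 with Spearman correlation and 2.37 to 2.45 without a kale library. Genes counted in kale only numbered 405 at a minimum of 5 counts, 93 at 20, 368 with deposited counts and 369 when up to 2 counts were allowed in cabbage; leaving out a library gave 235 to 442. For cabbage the numbers in the same order were 174, 38, 60 and 219, and 102 to 141 without a library.

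With replicate number as a block, 5992 genes were called, 5703 of them also called without it. The numbers were not taken as pairs: deviations of same-numbered libraries correlated at -0.0535 (number 1) and 0.0804 (number 2) across genes. Lower bounds of folds without each library were added after seeing the data. The depth of cabbage replicate 1 sets the limit for low genes, since 3 counts there stand for 1.01 CPM.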
